A study of Mus musculus with 3 samples.

Results

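The loci described here were assembled from heart ventricle RNA as spliced transcripts that matched no reference transcript. They were chosen by their structure and position. Every transcript of the locus was unmatched, at least 1 transcript had 2 or more exons, more than 200 nt and a known strand, and the span lay more than 10 kb from any transcript that matched a RefSeq mRNA. Of 48617 loci with transcripts, 23350 held only unmatched transcripts, 545 of these had a spliced transcript and 541 met the limits on length and strand. The final set had 316 loci, and the other 225 lay within 10 kb of a coding transcript. The nearest locus inside the limit was 9887 bp from a coding transcript and the nearest member was 10224 bp away. Expression was measured by paired-end RNA-seq of stranded total RNA from ventricles of C57BL/6 mice at embryonic stages E10.5 and E13.5, named by days of gestation, and from adults of 8 weeks (Adult), with no genetic change or treatment in any group. Each stage has 1 library, so there is no replicate error at any stage and no p-value is given. How many hearts entered a library is not given in the sources used here.

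Long intergenic non-coding RNAs are transcribed and spliced by the same machinery as mRNAs, usually have few exons, and are often found at low level and in few tissues. Some act on genes of the same chromosome, others act elsewhere, and many have no known role. A spliced transcript assembled outside annotated genes can also be an unlisted exon of a coding gene, a gene for a small protein, an antigen receptor gene, or a processed pseudogene, which is a copy of an mRNA inserted back into the genome without its introns. Sequence beside expression is needed to tell these apart, and the sequences below are shown for that purpose.

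Of the 812 introns in the 316 loci, 774 began with GT and ended with AG, the common pair of vertebrate introns, 10 were GC-AG and 9 were AT-AC. The first intron of the member with the largest difference between E10.5 and Adult, which overlaps the RefSeq gene Gm36827 (chr10:56967027-56982229, minus strand), is shown by its 15 last exon bases and 15 first intron bases, then by its 15 last intron bases and 15 first bases of the next exon. Capitals mark the intron ends.
Gm36827 donor, chr10:56982049-56982078: gctataagatagtggGTgagtaacatattt
Gm36827 acceptor, chr10:56981466-56981495: gtttcatcatgacAGgctttagtttgcagt
The same positions are given for the member over Gm36703 (chr13:102349709-102359838, plus strand) and for Strit1 (chr3:63481127-63483902, minus strand), the latter a coding gene.
Gm36703 donor, chr13:102349776-102349805: aattgctacacaaagGTatggaaaactctg
Gm36703 acceptor, chr13:102351327-102351356: tggcctctctatcAGatcctgcctctgggt
Strit1 donor, chr3:63483800-63483829: taatggctgagaaagGTaagctgaaaagta
Strit1 acceptor, chr3:63481367-63481396: attgcttctaagcAGagtcaacatcaccac

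A different picture was seen at the loci with the highest values. The spliced transcripts were aligned to coding mRNAs of other genes, and 23 of the 316 loci matched one on its own strand over 80% or more of their length at 95% or more identity. They are called mRNA-like below. At 11 of them the stretch removed as an intron was itself present in the mRNA. It was 50 to 1475 bp long, was 97.5% to 100% identical to the mRNA, had the same length there in 6 cases and differed by at most 12 nt in the others. In 8 of the 11 the stretch lay wholly in the coding part of the mRNA. The shortest case was in Gm5526, a processed pseudogene of Myl6, a myosin light chain gene. It is shown with 20 exon bases on either side and the removed 50 bases in capitals.
Gm5526, chr1:45857541-45857630, minus strand: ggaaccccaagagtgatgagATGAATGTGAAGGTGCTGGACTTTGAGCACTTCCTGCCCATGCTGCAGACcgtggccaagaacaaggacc
Myl6 mRNA: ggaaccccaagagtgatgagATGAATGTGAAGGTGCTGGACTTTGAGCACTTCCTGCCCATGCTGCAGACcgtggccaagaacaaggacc
Every base of the removed stretch was identical to the mRNA, and its ends are AT and AC. A second case was Gm7964, a pseudogene of Hnrnpk, which encodes an RNA-binding protein. The removed 124 bases were 98.4% identical to the mRNA.
Gm7964, chr7:83757074-83757237, plus strand: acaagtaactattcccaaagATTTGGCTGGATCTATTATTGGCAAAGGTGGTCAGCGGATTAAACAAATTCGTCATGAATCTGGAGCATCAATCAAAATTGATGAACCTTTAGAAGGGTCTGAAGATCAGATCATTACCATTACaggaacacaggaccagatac
Hnrnpk mRNA: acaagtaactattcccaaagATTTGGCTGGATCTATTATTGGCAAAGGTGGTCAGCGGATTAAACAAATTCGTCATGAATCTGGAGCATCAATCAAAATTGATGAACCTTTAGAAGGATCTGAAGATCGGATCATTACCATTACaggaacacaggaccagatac

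In 9 other mRNA-like loci the joined exons were adjacent in the best matching mRNA. The 30 to 4201 bases between them were not part of the match across the junction. Each locus was compared with its best matching transcript only. Other transcripts of the same gene may hold the removed bases, which was not examined. Hmga1b, a copy of the chromatin protein gene Hmga1, is shown with its 33 removed bases in capitals, followed by the best matching mRNA.
Hmga1b, chr11:120762971-120763043, plus strand: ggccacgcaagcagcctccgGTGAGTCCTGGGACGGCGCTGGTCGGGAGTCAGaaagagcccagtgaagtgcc
Hmga1 mRNA: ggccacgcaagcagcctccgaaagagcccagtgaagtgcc
The remaining 3 mRNA-like loci showed neither arrangement. Among the introns of the 23 best matching transcripts, 16 were GT-AG, 3 were GC-AG and 4 were AT-AC. Of the 11 with the removed stretch inside the mRNA, 5 were GT-AG, 3 GC-AG and 3 AT-AC. The FPKM of a near-identical copy and of the gene it matches cannot be told apart with certainty, since it is not stated how fragments with more than 1 position were counted. Their values are therefore uncertain.

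The 10 loci with the highest value in any library were all mRNA-like. Values are FPKM, fragment numbers scaled to exon length and to the mapped fragments of the library, and are given in the order E10.5, E13.5 and Adult. The highest was Hadhb-ps (chr2:108948354-108950436), a copy of the gene for the beta subunit of the mitochondrial trifunctional protein of fatty acid oxidation, at 128, 145 and 894 FPKM. The locus of Hadhb itself had 20.5, 21.9 and 146 FPKM, so the library order was shared and the copy was listed higher than the gene in each library. Dynlt1-ps1 (chr6:135349237-135350022), which matches a dynein light chain mRNA, was at 255, 302 and 40.3 FPKM. The Myl6 copy Gm8894 (chr14:55420345-55420782) was at 183, 287 and 77.4 FPKM and the copy Gm5526 (chr1:45857177-45857843) at 116, 144 and 14.8 FPKM, against 89.7, 126 and 34.3 FPKM for the Myl6 locus. The copies of Myl6 and Dynlt1-ps1 were higher in both embryonic libraries than in the adult, and Hadhb-ps was highest in the adult.

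Gm7964 (chr7:83755647-83757639) was at 159, 226 and 50.3 FPKM and the locus of Hnrnpk at 150, 176 and 46.8 FPKM. Hspd1-ps3 (chr11:41498547-41500770), a copy of the gene for the mitochondrial chaperonin HSP60, was at 156, 190 and 99.3 FPKM against 118, 138 and 67.6 FPKM for Hspd1. Hmga1b (chr11:120762791-120763177) fell at each step, from 157 to 64.3 and 13.49 FPKM, as did Hmga1 at 38.4, 22.0 and 4.28 FPKM. Ppp1ccb (chr7:119739970-119742218), a copy of the gene for a catalytic subunit of protein phosphatase 1, was at 125, 149 and 58.7 FPKM. The Ppp1cc locus was lower in each library, at 2.001, 4.25 and 2.09 FPKM. Tsg101-ps (chr15:62980638-62981835) at 19.7, 33.6 and 15.7 FPKM and Cdv3-ps (chr14:43120584-43122246) at 29.4, 36.4 and 15.03 FPKM completed the 10.

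The 23 mRNA-like loci held 83.8%, 87.7% and 70.3% of the FPKM summed over all 316 loci, in library order. Of the 23, 21 reached 1 FPKM in at least 1 library, and 15 of the 25 loci above 10 FPKM in any library were among them. For 20 of them a matched coding locus could be set beside the member. From E10.5 to Adult 18 of the 20 differed in the same direction as the matched gene, with Pearson's r = 0.88 and Spearman's rho = 0.69 between the differences of log2(FPKM + 1). From E10.5 to E13.5 the direction was shared by 14 of the 20, with r = 0.26 and rho = 0.31. These are descriptions across loci that share 3 libraries and near-identical sequence. An exception was Gm7117 (chrX:105725007-105751097), which matches Rpl12, at 0.112, 0.196 and 1.21 FPKM while the Rpl12 locus was at 6.06, 6.03 and 1.46 FPKM.

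**Figure D1:**
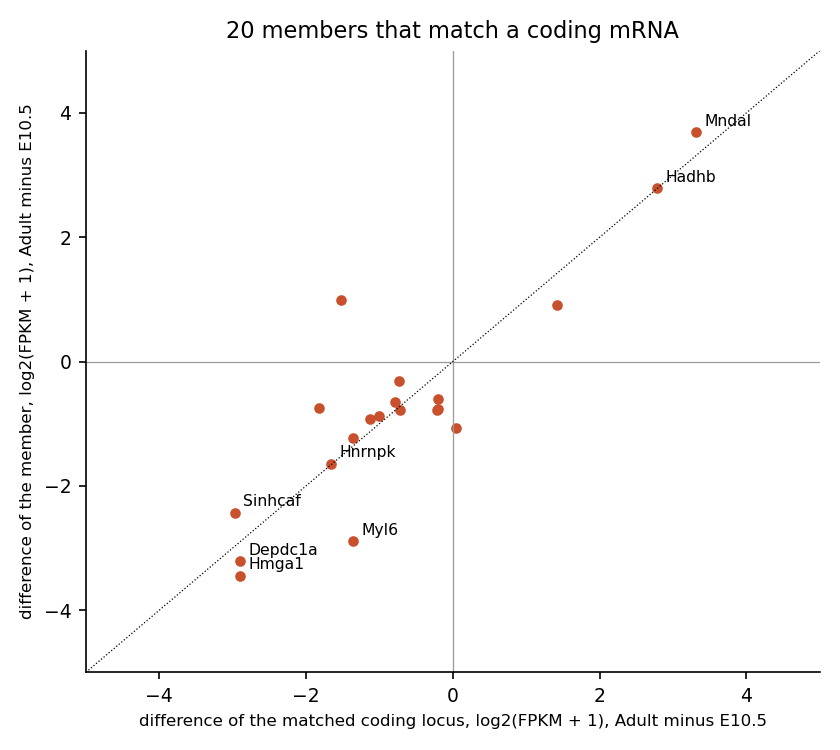
Difference of log2(FPKM + 1) from E10.5 to Adult for 20 mRNA-like members (vertical axis) and for the coding locus that each matches (horizontal axis), 1 library per stage. Points are loci, labelled with the matched gene where the member differs by more than 1.6, and the dotted line marks equality. Hadhb lies near the line at 2.79 for the copy and 2.78 for the gene, and the Myl6 point shown with a label is at -2.89 for the copy and -1.36 for the gene.

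The members were then read against the GENCODE M21 annotation of the same genome build, which was not used in choosing them. On their own strand, 120 of the 316 overlapped an exon of a non-coding RNA gene most, 49 that of a protein-coding gene, 36 that of a pseudogene and 6 that of an antigen receptor constant gene. The other 105 overlapped no GENCODE exon on their strand. Of these 105, 56 overlapped a RefSeq exon, which was from a predicted non-coding transcript in 46 cases. The remaining 49 were in neither annotation, and 38 of them reached 1 FPKM in at least 1 library. The overlap varied, with a median of 37.3% of exonic bases in the non-coding class and 87.3% in the coding class. In all, 69 of the 316 lay on exons of a GENCODE coding gene or within 10 kb of such a gene. The distance rule counted only transcripts that matched a RefSeq mRNA in the deposited annotation.

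Most members had a simple structure. The median member spanned 5974 bp with 1 transcript, and the longest transcript had a median of 1128 nt. The largest number of exons was 2 in 168 loci, 3 in 71 and 4 in 42. The median share of the longest open reading frame in a transcript was 0.191, and 81 loci had a frame over 1/3 of a transcript. Interspersed and low-complexity repeats covered a median of 12.3% of exonic bases. Loci that met the same limits on structure and distance but matched a RefSeq non-coding transcript had 4 exons at the median, and 58 of 772 had only 2, compared with 168 of 316 members. The 225 unmatched spliced loci within 10 kb of a coding transcript had 2 exons at the median, and 150 had only 2. The simple structure was thus shared by those loci. The members had been selected in part by being assembled from these libraries. In any library, 94 of the 772 RefSeq non-coding loci reached 1 FPKM, against 243 of 316 members and 176 of the 225 nearer loci.

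The limit of 1 FPKM was reached by 90 of the 316 members (28.5%) in the E10.5 library, by 91 (28.8%) in the E13.5 library and by 164 (51.9%) in the Adult library. The shares over all loci of the table were 37.4%, 29.0% and 43.3%. In all, 243 members reached 1 FPKM in at least 1 library. The Adult library alone accounted for 115 of these, the E10.5 library alone for 25 and the E13.5 library alone for 28, and 27 passed in each library. A further 26 passed in both embryonic libraries, 12 in E10.5 and Adult, and 10 in E13.5 and Adult. The adult was thus the library with most members above the limit, by a wider margin than for the table as a whole.

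The levels were low. The highest value was under 2 FPKM for 107 of the 243 expressed members and above 10 FPKM for 25. The members that reached 1 FPKM in a library had medians of 2.33, 1.76 and 2.27 FPKM in library order, compared with 11.7, 11.8 and 8.38 FPKM for coding loci under the same limit. From the smallest steps of the values of single-exon loci, 1 FPKM over 1 kb was estimated to rest on 13.6, 25.8 and 16.3 fragments, in the same order. Members near the limit therefore rest on few fragments. In at least 1 library 71 of the 243 expressed members were listed at 0, which can be a failed estimate, and no fold is given against a 0.

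**Figure D2:**
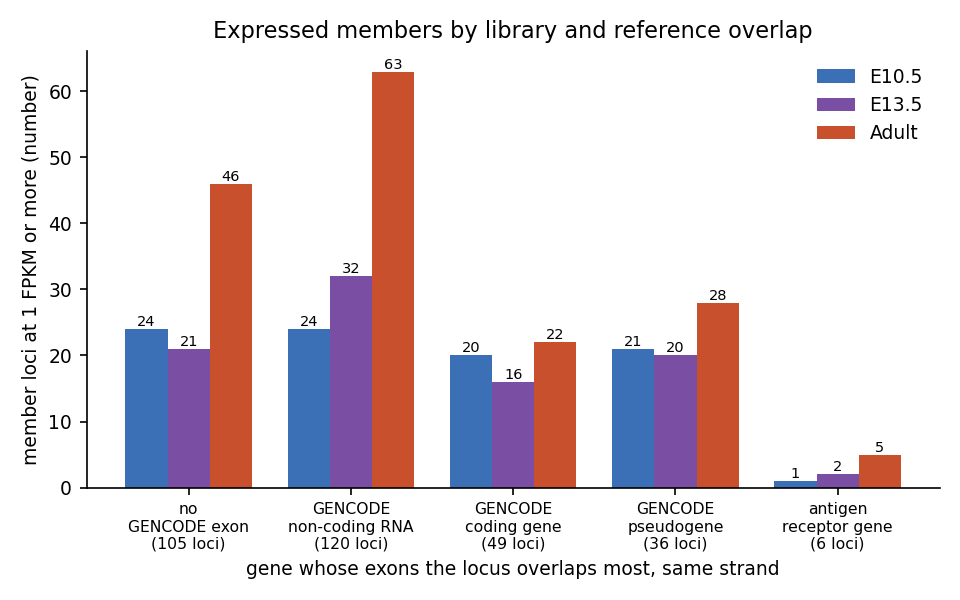
Number of member loci at 1 FPKM or more in the E10.5, E13.5 and Adult libraries (bars, 1 library per stage), by the kind of GENCODE gene whose exons the member overlaps most on its strand. The non-coding RNA class went from 24 and 32 loci in the embryonic libraries to 63 in the adult, and the class with no GENCODE exon from 24 and 21 to 46.

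The non-coding class and the class with no GENCODE exon shared this pattern. Members over non-coding RNA genes at or above 1 FPKM numbered 24, 32 and 63 out of 120, in library order. Members with no GENCODE exon numbered 24, 21 and 46 out of 105, and those in neither annotation 14, 8 and 22 out of 49. Members over coding genes numbered 20, 16 and 22 out of 49. Members over pseudogenes numbered 21, 20 and 28 out of 36. The numbers at the limit were thus more even across the libraries in the coding and pseudogene classes. Of the 36 members over pseudogenes, 19 were mRNA-like, with uncertain values. By 2 or more on the scale of the next paragraph, 6 of 33 expressed pseudogene members were higher and 5 lower in Adult than E10.5. The counts were 18 and 1 of 91 for the non-coding class, 8 and 2 of 77 without a GENCODE exon, and 2 and 3 of 37 for the coding class.

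Differences between libraries were taken on the log2(FPKM + 1) scale, where changes of low loci come out too small, and were counted from 2 upward, a 4-fold difference of FPKM + 1. From E10.5 to Adult, 35 of the 243 expressed members (14.4%) were higher by this measure, and 11 (4.53%) were lower. Among 26910 expressed loci of the table the shares were 4.96% higher and 5.93% lower. The median difference was 0.77 over the members, -0.09 over all expressed loci and -0.40 over expressed coding loci. From E13.5 to Adult, 36 members (14.8%) were higher and 8 (3.29%) lower, beside 5.51% and 5.82% of all loci, with a median of 0.85 against 0.19. From E10.5 to E13.5, 2 members (0.823%) were higher and 3 (1.23%) lower, beside 0.561% and 2.14% of all loci, with a median of 0.00 against -0.02. The share of members higher in the adult was thus above that of the table in both comparisons with the adult, which share that library. Members entered the set in part by being assembled from these libraries, unlike annotated loci of the table. The table also holds other loci with only unmatched transcripts, and 12569 of the 26910 expressed loci were coding. Of these coding loci 5.59% were higher and 8.10% lower from E10.5 to Adult, and 4.41% and 9.88% from E13.5 to Adult. Of the 243, 115 reached 1 FPKM in the Adult library alone, so this comparison is not between like sets. In each embryonic library most members were under 1 FPKM, which leaves little room for a difference of 2 on this scale. With a pseudocount of 0.1 in place of 1 the counts from E10.5 to E13.5 were 17 higher and 28 lower. The shares over all loci were not computed with that pseudocount, so these counts are not set against the table.

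The scaling of the libraries moves these values. With median-of-ratios factors over coding loci, the median of all expressed loci from E10.5 to Adult moved from -0.09 to 0.23 and that of the members from 0.77 to 1.01, so the members stayed above all loci by a similar amount. Under this scaling or one to equal sums without globin and mitochondrial genes, no member was higher and 4 were lower at E13.5 than at E10.5. Markers of cell types also differed between these libraries. The summed FPKM of 8 erythroid markers was 6116, 17275 and 207, that of 6 macrophage markers was 38.6, 91.6 and 389, and that of 6 fibroblast markers was 232, 509 and 523. The median over the 6 fibroblast markers was 21.1, 71.1 and 28.1 FPKM, so unlike the sum it was lower in the adult than at E13.5. The sum of 4 genes listed as atrial markers, Myl7, Sln, Nppa and Myl4, was 6382, 6766 and 40.9. Whether these 4 genes mark atrial cells in embryonic ventricle libraries was not tested. All 8 cardiomyocyte markers were above 1 FPKM in each library. All 6 liver markers were below 1 FPKM in the adult and 4 were above it at E13.5. In bulk tissue fewer cells of a type and less RNA per cell cannot be told apart, and the part of these markers in the members' differences was not tested.

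**Figure D3:**
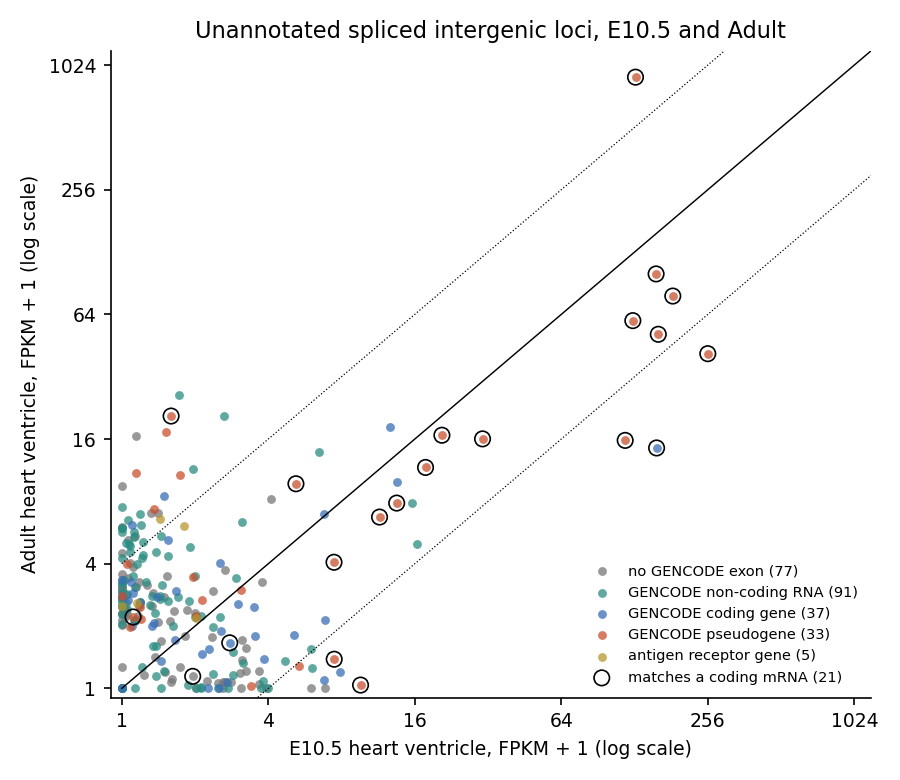
FPKM + 1 at E10.5 (horizontal) and in the adult (vertical), both on log scales, for the 243 members at 1 FPKM or more in any library, coloured by the GENCODE gene they overlap most. Circles mark 21 mRNA-like members, the solid line marks equality and the dotted lines a 4-fold difference. The 10 highest loci are all circled, and 151 of the 243 members lie above the line.

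Without the 23 mRNA-like loci, 222 expressed members were left, and from E10.5 to Adult 33 of them were higher and 6 lower, with a median difference of 0.89. The largest difference belonged to the member over Gm36827 (chr10:56967027-56982229), a non-coding RNA gene of unknown role, with 5 exons, at 0.713, 0.144 and 25.1 FPKM and a difference of 3.93 from E10.5 to Adult. Its nearest coding gene, the heat shock factor gene Hsf2, lay 504155 bp away and was at 24.0, 19.6 and 8.71 FPKM, lowest in the adult where the member was highest. The member over Gm36703 (chr13:102349709-102359838), which had no GENCODE exon, was at 0.148, 0.303 and 15.5 FPKM with a difference of 3.85. The nearest coding gene was Cd180, a receptor of B cells and macrophages, 333719 bp away, at 0.142, 0.268 and 2.68 FPKM. Both members were below 1 FPKM in the embryonic libraries and among the highest non-copy loci in the adult.

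The 300 bases around the assembled 5′ end of both members, 250 before it and 50 from it on, are shown because these loci had the largest differences. The assembled end need not be the true start. Capitals mark the motif letters that were found.
Gm36827, chr10:56982180-56982479, minus strand: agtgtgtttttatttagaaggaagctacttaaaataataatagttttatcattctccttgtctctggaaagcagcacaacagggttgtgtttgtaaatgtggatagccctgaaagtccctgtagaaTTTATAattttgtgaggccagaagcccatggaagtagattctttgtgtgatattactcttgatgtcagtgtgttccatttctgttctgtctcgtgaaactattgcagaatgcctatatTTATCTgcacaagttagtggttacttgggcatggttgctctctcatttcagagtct
Gm36703, chr13:102349459-102349758, plus strand: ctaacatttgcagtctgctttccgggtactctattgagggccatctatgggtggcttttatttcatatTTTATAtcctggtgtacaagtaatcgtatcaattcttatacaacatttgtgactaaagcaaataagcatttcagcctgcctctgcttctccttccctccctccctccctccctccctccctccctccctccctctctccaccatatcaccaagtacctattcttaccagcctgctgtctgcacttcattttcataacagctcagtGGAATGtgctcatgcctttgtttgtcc
Over all 316 windows, searched on both strands, TATAAA was found in 51 (16.1%), the GATA factor letters AGATAA in 52 (16.5%), the TEAD letters GGAATG in 47 (14.9%), the E-box CACGTG in 15 (4.75%), the T-box letters AGGTGTGA in 7 (2.22%) and the MEF2 consensus in 22 (6.96%). The same letters were in 13.6%, 11.2%, 14.7%, 7.15%, 1.28% and 3.19% of 32851 RefSeq promoters of the same length. TATAAA and the MEF2 consensus can share bases. A ratio of observed to expected CpG of 0.6 or more was found in 32 windows (10.1%) and in 35.8% of the promoters. It was found in 9.97% of the windows of the 772 RefSeq non-coding loci and in 32.9% of those of the 225 nearer loci. In the windows of the 772 loci the letters, in the same order, were in 16.2%, 13.9%, 19.3%, 5.70%, 0.907% and 2.98%. The MEF2 consensus was in 5.78% of the windows of the 225 nearer loci. The low CpG ratio and the share with TATAAA were thus not particular to the members. A match is a description of the letters and not of binding.

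The member over Gm31663 (chr7:92981905-93045075) was at 0.514, 0 and 16.3 FPKM, and its neighbour Fam181b stayed at 0.560, 1.58 and 1.19 FPKM. The member has a TATA sequence in the window at its 5′ end. This window is shown because the member had the next largest rise from E10.5 to Adult after Gm36827 and Gm36703, mRNA-like members left out.
Gm31663, chr7:92981655-92981954, plus strand: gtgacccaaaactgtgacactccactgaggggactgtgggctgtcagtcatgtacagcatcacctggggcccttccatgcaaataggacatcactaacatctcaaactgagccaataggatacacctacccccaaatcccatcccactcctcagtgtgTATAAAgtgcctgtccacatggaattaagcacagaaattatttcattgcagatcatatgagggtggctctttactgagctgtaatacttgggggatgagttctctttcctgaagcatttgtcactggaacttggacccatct
A member of 133590 bp on the exons of Lncpint (chr6:31086711-31220300), a non-coding RNA gene known as a target of p53, was at 1.63, 0.118 and 19.6 FPKM, although only 13.8% of its exonic bases were Lncpint exons. Ifi203-ps (chr1:173797970-173802655), in the cluster of interferon-inducible Ifi200 genes, was at 0.594, 0.115 and 19.7 FPKM. Its neighbour locus, which joins Ifi204, Ifi205 and Mndal, was at 1.84, 7.09 and 27.3 FPKM and is also its mRNA match. The members over Gm20561 (chr9:90881606-91086225, 0.148, 0.126 and 9.92 FPKM), Gm42209 (chr3:36354439-36408635, 0, 0.0569 and 8.51 FPKM), Gm8995 (chr7:106500878-106529192, 0.731, 0.783 and 9.74 FPKM) and Gm30556 (chr14:34119558-34120849, 0, 0 and 6.52 FPKM) were also highest in the adult. With Hadhb-ps, these were the 10 largest rises, and each was below 2 FPKM in both embryonic libraries except Hadhb-ps.

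**Figure D4:**
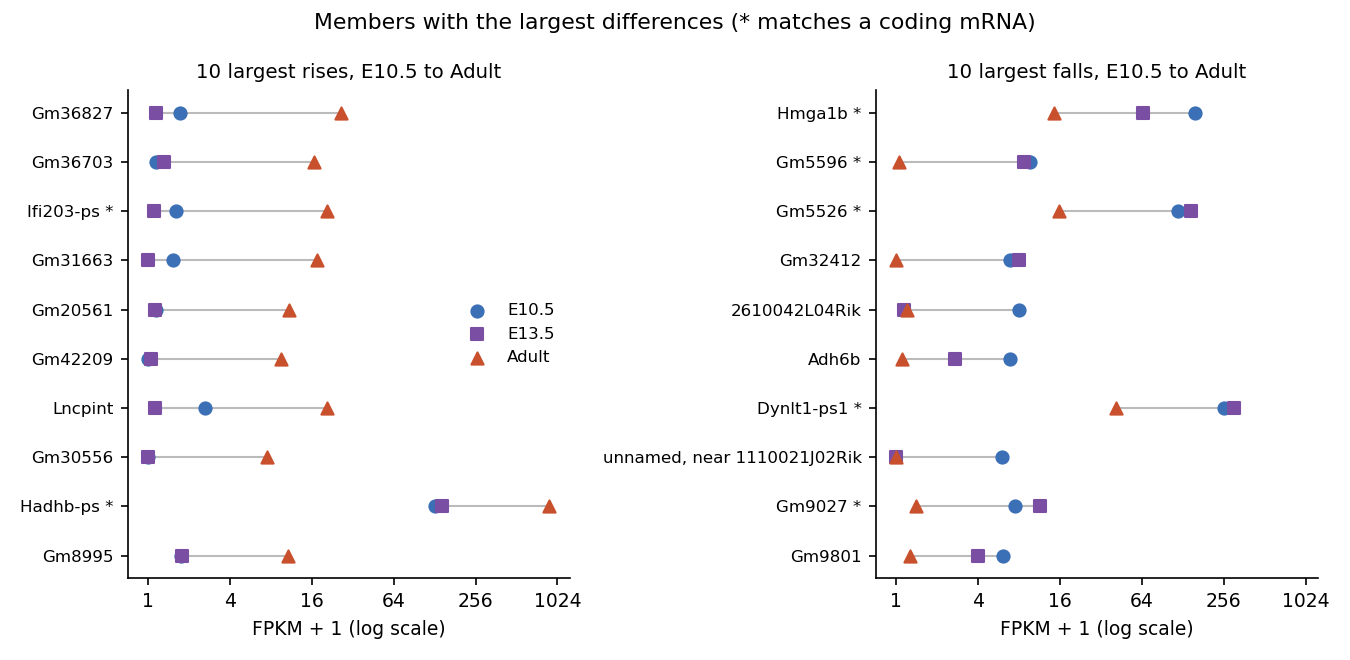
FPKM + 1 on a log scale in the E10.5 (circles), E13.5 (squares) and Adult (triangles) libraries for the members with the 10 largest rises and the 10 largest falls from E10.5 to Adult. Names are those of the RefSeq or GENCODE gene overlapped, and an asterisk marks an mRNA-like member. In the left panel 9 of the 10 loci start below 2 FPKM in both embryonic libraries, and in the right panel 5 of the 10 are mRNA-like.

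The 10 largest falls were more mixed. Of these 10, 5 were mRNA-like, namely Hmga1b, Gm5596, Gm5526, Dynlt1-ps1 and Gm9027. Gm5596 (chr7:57878170-57881301), a copy of the cell division gene Depdc1a, was at 8.57, 7.68 and 0.0373 FPKM, and the Depdc1a locus was at 6.45, 7.43 and 0 FPKM. Gm9027 (chr16:61377070-61379707), a copy of the gene of the histone deacetylase complex subunit Sinhcaf, was at 6.46, 10.3 and 0.382 FPKM against 15.2, 15.3 and 1.07 FPKM for that gene. In both pairs the copy and the gene were lowest in the adult. The member over Gm32412 (chr4:31824287-31877822), which had no GENCODE exon, was at 5.81, 6.91 and 0 FPKM. Its nearest coding gene, the kinase gene Map3k7, was at 26.3, 17.3 and 12.2 FPKM at 86284 bp.

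Adh6b (chr3:138341649-138358810), an alcohol dehydrogenase gene, was assembled with 11 exons and was at 5.796, 1.71 and 0.0966 FPKM. The member over Gm9801 (chr7:62206550-62209519) was at 5.06, 2.95 and 0.261 FPKM, 138757 bp from the imprinted gene Ndn, which was at 62.4, 80.3 and 2.24 FPKM. Both members fell at each step. The member over 2610042L04Rik (chr14:4334772-4339919) was at 6.91, 0.144 and 0.201 FPKM and lies in a family of similar genes, so its value is uncertain. An unnamed locus in neither annotation (chr17:29745286-29746015) was at 5.01, 0 and 0 FPKM. These last members were above 1 FPKM in the E10.5 library alone.

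Few members stood apart at E13.5. The largest rise from E10.5 to E13.5 was a member over 14.5% of its bases on exons of Robo1 (chr16:72027688-72308665), the receptor of Slit guidance proteins, at 0.651, 6.15 and 0.715 FPKM. The matched Robo1 transcripts lay 354483 bp downstream on the same strand, and their locus was at 10.3, 10.3 and 0.528 FPKM. The member over Gm36199 (chr17:29439305-29466071) was at 0.127, 3.65 and 1.14 FPKM and that over Gm41616 (chr17:73054899-73084103) at 0.818, 4.47 and 0.786 FPKM. Gm42315 (chr4:31506436-31512057) and D5Ertd615e (chr5:45111700-45295287) were at 2.83 and 2.08 FPKM at E13.5 and were listed at 0 in both other libraries. All 5 were highest at E13.5.

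Among the 5 largest falls from E10.5 to E13.5, 3 were in members above 2 FPKM in the adult. Of these Strit1 (chr3:63481127-63483902) was at 11.7, 1.35 and 17.4 FPKM. Strit1 encodes DWORF, a small membrane protein of muscle that enhances the activity of the SERCA calcium pump of the sarcoplasmic reticulum. It is a coding gene in the current annotations and was unmatched in the deposited one. Its 108 coding bases in RefSeq, for 35 amino acids and a stop codon, are all contained in 1 deposited transcript, with the start and stop codons in capitals.
Strit1 coding bases, chr3:63481290-63483827, minus strand, without the intron: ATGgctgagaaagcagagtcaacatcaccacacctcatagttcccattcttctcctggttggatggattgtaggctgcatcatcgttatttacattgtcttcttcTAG
The longest transcript of the locus was only 251 nt, so its FPKM rests on few fragments. AU020206 (chr7:75773588-75782106), of which 2.49% of exonic bases overlap that gene, was at 14.6, 3.12 and 6.81 FPKM. A member over Morf4l1b, a gene with a RefSeq mRNA (chr19:41524924-41527512) was at 2.76, 0.152 and 2.28 FPKM, and none of its introns was GT-AG. These 3 members were lowest at E13.5.

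Of the 49 members on exons of coding genes, 13 lay on exons of the gene that was also their nearest coding neighbour, with 5.27% to 100% of their exonic bases on those exons. A run of 5 members on chr2:31314520-31459203 were pieces of Hmcn2, which encodes an extracellular matrix protein of the hemicentin family. They included the member with the most exons, 30, and the most transcripts, 8 (chr2:31314520-31391743), at 0.493, 0.0767 and 7.45 FPKM. The 5 pieces ranged from 0.0635 to 0.493 FPKM in the E10.5 library, from 0 to 0.196 FPKM in the E13.5 library and from 0.705 to 7.45 FPKM in the Adult library. All 5 were thus highest in the adult, and they are parts of 1 gene rather than separate cases. When members of 1 strand within 10 kb of each other were joined, the 316 loci made 301 groups, and 26 members lay in 11 groups of 2 to 5.

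Constant regions of antigen receptor genes of B and T cells held 6 members, of which 5 were expressed. The member over Ighm (chr12:113418621-113430697) was at 0.442, 1.04 and 5.58 FPKM, that over Igkc (chr6:70722481-70726781) at 0.793, 0 and 5.08 FPKM, and that over Ighg2c (chr12:113287306-113296062) at 0, 0.0170 and 1.49 FPKM. The member over the T cell receptor gene Trac (chr14:54181070-54223732) was at 1.02, 1.09 and 1.19 FPKM. The heavy and light chain loci were highest in the adult and Trac was about even. These genes were chosen after their values were seen.

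Nearest coding genes were described for the whole set, by the nearest transcript that matched a RefSeq mRNA. A GENCODE coding gene can lie nearer. The median distance was 52508 bp, 60 members lay within 20 kb and 47 lay more than 200 kb away. The member was upstream of its gene on the same strand in 90 cases and on the opposite strand in 66, and downstream in 96 and 64. The 316 members had 280 different nearest genes. For 186 expressed members the locus of the nearest gene also reached 1 FPKM, and 116 of these pairs (62.4%) had differences of the same sign between E10.5 and Adult. In these pairs 115 members and 73 genes were higher in the adult. Pearson's r between the differences was 0.40 and Spearman's rho 0.42 over the 186 pairs, and 0.44 and 0.48 over the 153 pairs left without mRNA-like members and members on coding exons. From E10.5 to E13.5 the values were 0.05 and 0.07. Pairs share their libraries, so these are descriptions without a test.

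**Figure D5:**
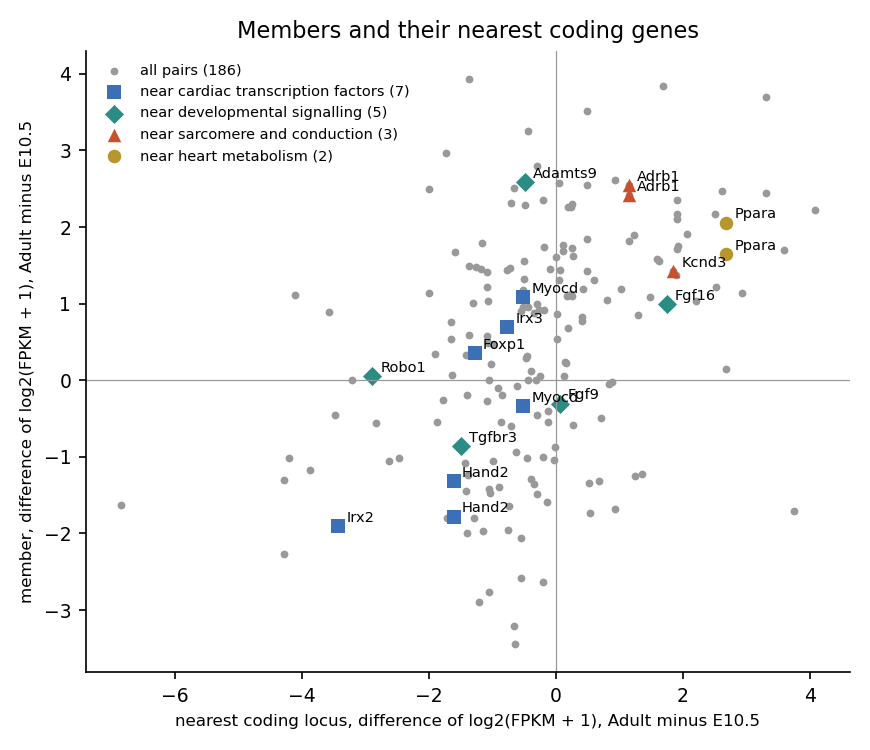
Difference of log2(FPKM + 1) from E10.5 to Adult for 186 expressed members (vertical) and their nearest expressed coding loci (horizontal), 1 library per stage. Coloured points are members next to genes of 4 lists, labelled with the gene. The members next to Hand2 and Irx2 lie in the lower left and those next to Ppara, Adrb1 and Kcnd3 in the upper right, while those next to Myocd lie on both sides of 0.

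Neighbours were looked up in lists of heart genes. Of 46 genes for cardiac transcription factors, 5 were nearest to a member, with 7 members, all expressed. Over the whole set, 280 genes were nearest to a member and there were 20117 coding loci. Whether the lists differ from that share was not tested. Hand2, a factor needed for the right ventricle, had 2. The member on exons of the antisense gene Hand2os1 (chr8:57290926-57293191), 27791 bp upstream on the opposite strand, was at 1.496, 0.0695 and 0 FPKM. The member over Hdnr (chr8:57351691-57379028), 27173 bp downstream on the same strand, was at 3.66, 1.01 and 0.360 FPKM. The locus of Hand2 was at 29.9, 42.1 and 9.12 FPKM, so it was highest at E13.5 while both members were highest at E10.5.

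Near Irx2, a homeobox gene of the ventricle, the member over Gm47836 (chr13:72324012-72371945) was at 2.75, 1.14 and 0 FPKM at a distance of 257032 bp, and Irx2 was at 10.2, 7.54 and 0.0378 FPKM. The order of the libraries was the same in both. Near Irx3, of the same family, the member over Gm36670 (chr8:91987407-91991767) was at 0.706, 3.04 and 1.77 FPKM and the gene at 3.59, 6.70 and 1.70 FPKM. Upstream of Myocd, the coactivator of serum response factor, an unnamed locus at 32506 bp (chr11:65302760-65304043) was at 0.350, 0.221 and 1.87 FPKM and one at 148210 bp (chr11:65418464-65422024) at 0.510, 1.06 and 0.195 FPKM, while Myocd was at 29.4, 11.7 and 20.3 FPKM. An unnamed locus near Foxp1 (chr6:99456918-99479008) was at 0.860, 0.187 and 1.38 FPKM and Foxp1 at 16.2, 16.5 and 6.10 FPKM. None of the 7 members differed by 2 or more between E10.5 and Adult. In 4 of the 7 the direction was that of the gene, beside 116 of all 186 pairs.

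The list of sarcomere and conduction genes had 56 genes, of which 2 were nearest to 3 members, and that of heart metabolism had 44 genes, of which 1 was nearest to 2 members. All 5 members were higher in the adult than at E10.5, as were their genes. Over all 186 pairs, 115 members and 73 genes were higher in the adult. The members on either strand downstream of Adrb1, the main beta-adrenergic receptor of the heart, overlapped each other. That on the opposite strand (chr19:56738741-56746739) was at 0.189, 0.170 and 5.94 FPKM and that on the same strand (chr19:56743276-56762066) at 0.313, 0.0665 and 5.99 FPKM, with Adrb1 at 1.31, 2.04 and 4.12 FPKM. Upstream of Ppara, a nuclear receptor that controls genes of fatty acid oxidation, members at 50928 bp (chr15:85646109-85684635) and 34484 bp (chr15:85691852-85701079) were at 0.226, 0.594 and 4.11 FPKM and at 0.113, 0.352 and 2.49 FPKM. Ppara was at 1.70, 0.453 and 16.3 FPKM. A member near Kcnd3, a gene of the transient outward potassium current, was at 0, 0.149 and 1.69 FPKM with Kcnd3 at 0.634, 0.719 and 4.87 FPKM (chr3:105375581-105376519).

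Among 57 developmental signalling genes, 6 were nearest to 6 members, of which 5 were expressed and 2 differed in the direction of their gene. An unnamed locus 252413 bp from Adamts9, a matrix protease gene (chr6:93153855-93162357), had 4.998 FPKM in the Adult library and was listed at 0 in the others, while Adamts9 was at 16.6, 10.4 and 11.5 FPKM. The member over Gm33474 next to Tgfbr3, a co-receptor for TGF-beta (chr5:107053429-107077965), was at 0.877, 2.11 and 0.0329 FPKM and Tgfbr3 at 44.7, 8.70 and 15.2 FPKM. A member next to the growth factor gene Fgf9 was at 0.495, 1.07 and 0.210 FPKM while Fgf9 stayed between 3.25 and 3.43 FPKM. The member next to Smad6, an inhibitor of BMP signalling, stayed below 1 FPKM in each library. The genes of these 3 lists were not part of the rule for named loci and were chosen after their values were seen.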

How the data were processed

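Ventricle RNA of 3 stages was analysed, with 1 library per stage. The authors used TopHat2 and Bowtie for mapping to mm10 and ran Cufflinks both with UCSC annotations and without them, per the study's text and the submitters' processing notes, and deposited 1 FPKM value per locus and library, with the exons of merged transcripts and their relation to RefSeq. Further versions and options and the handling of multiply mapped fragments are not given in the sources used here. The members, gene lists and the rule for named loci were chosen with earlier results of these data known. Named were the 10 highest members, the 10 largest rises and falls to Adult, the 5 largest to E13.5, members next to cardiac transcription factors, and those with most exons and transcripts.

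A locus was expressed at 1 FPKM, and differences were taken on log2(FPKM + 1) with a limit of 2. Sequences came from GRCm38.p6 and GENCODE M21, the promoters from RefSeq. Transcripts were aligned with BLAST 2.17.0, and introns with Biopython 1.88, in Python 3.11.15. Counting was tested on simulated data. Alternatives changed the pseudocount, limits, scaling, distance and membership.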

Additional observations from a re-analysis of the deposited data

How the results depend on the processing

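No paired analysis was possible because the labels give 1 sample for every stage. Of 91 values computed under alternatives, 64 kept the size of the reported value and 27 moved. A value kept its size when it stayed within a range set around the reported one, so kept values could differ. With median-of-ratios scaling, 46 members were higher and 10 lower in Adult than E10.5, beside 35 and 11 as reported. In Adult against E13.5, 47 were higher, beside 36 as reported. In each alternative more members were higher than lower in the adult. The shares of all loci that were higher or lower were not computed under the alternatives. The counts below are therefore not set against the table. The counts of members are given as higher and lower in Adult than E10.5, higher and lower in Adult than E13.5, then higher and lower in E13.5 than E10.5, only where they moved. With a pseudocount of 0.1, which weights values near 0, they were 106, 49, 118, 43, 17 and 28. Beyond 50 kb from coding transcripts, where 161 loci were left, 123 were expressed the median distance was 127720 bp in place of 51512 bp, since nearer loci are left out, and the counts were 21, 5, 20 and 3, with 1 higher at E13.5 than E10.5. A limit of 2 FPKM left 136 expressed. With median-of-ratios scaling or equal sums without globin and mitochondrial genes, 5 were lower in Adult than E13.5 and 0 higher at E13.5 than E10.5. With open reading frames of at most 1/3, 2 were lower in Adult than E10.5, 3 lower in Adult than E13.5, and 1 higher and 0 lower at E13.5. Away from GENCODE coding genes, 5 were lower in Adult than E13.5, and 1 higher and 1 lower at E13.5. Without mRNA-like loci, an alternative chosen after seeing the data, 6 were lower in Adult than E10.5 and 2 in Adult than E13.5. The cause of these moves was not tested beyond the smaller number of loci. The share of pairs with 1 direction ranged from 57.3% to 65.7%.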
